A study of Sus scrofa with 24 samples.

Results

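Ovaries of Chenghua pigs sampled after infancy fell on either side of a wide gap in STAR, the transcript of the protein that moves cholesterol into mitochondria at the start of steroid synthesis. The groups described here were chosen by that measured level: mRNA libraries of Puberty, Year 1 and Pregnancy with STAR above 1000 TPM, a length-corrected share of all transcripts, were called STAR-high, and the rest STAR-low. STAR-high were Pregnancy replicate 3 and Year 1 replicates 2 and 3, in that order wherever 3 values are given below. STAR-low were Puberty replicates 1, 2 and 3, Year 1 replicate 1 and Pregnancy replicates 1 and 2. The 3 STAR-high and 6 STAR-low libraries are 9 of 12 mRNA libraries and of 24 samples in the series, whose small RNA libraries were not analysed here. Year 1 sows were 1 year old, Pregnancy sows were on day 105 of pregnancy, and Puberty sows were 120 days old. All were healthy and untreated as far as the labels state. Each stage had 3 sows, 1 for each library, and frozen ovary fragments were the source of the RNA. The labels do not say which part of the ovary a fragment held or on which day of the oestrous cycle the cycling sows were taken.

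The corpus luteum forms from the granulosa and theca cells of a follicle after ovulation. It takes up and makes cholesterol, turns it into progesterone, and is fed by a dense bed of new blood vessels. In pigs it persists through gestation, when it is also the main source of the hormone relaxin, and otherwise it regresses at the end of each cycle in answer to prostaglandin F2α.

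STAR stood at 3948.57, 5294.42 and 5107.31 TPM in the STAR-high libraries, against a lowest level of 5.88, a median of 44.4 and a highest level of 217.37 TPM in the STAR-low libraries. The value just inside the threshold was thus 3948.57 TPM in Pregnancy replicate 3, and the value just outside was 217.37 TPM in Puberty replicate 3. Because STAR set the groups in these same libraries, every difference between STAR-high and STAR-low libraries is given as a description, with no test. Tests are given for differences between stages, whose labels did not enter the choice: stages within 1 side of the gap, and the gap of 1 stage minus the gap of another. STAR and its close partners CYP11A1 and HSD3B1 are described only. The tests between stages ran over all genes, and their results for these genes are not reported here.

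Of the 8 luteal markers other than STAR, whose own separation the rule fixed, 5 were higher in every STAR-high library than in any STAR-low library: CYP11A1, HSD3B1, SCARB1, PTGFR and RLN2. Of all 15504 genes tested, 2656 lay wholly above in this way, whatever their fold. As close partners of STAR, CYP11A1 and HSD3B1 are described here and not taken as findings. CYP11A1, which cuts the cholesterol side chain, had levels of 4869, 4244 and 4439 TPM in STAR-high libraries, against 119 to 635 TPM in STAR-low libraries (median 217). HSD3B1, the enzyme of the step to progesterone, reached 8474, 11031 and 8606 TPM against 142 to 510 TPM (median 319). PTGFR, the receptor for prostaglandin F2α, was at 621, 151 and 119 TPM in STAR-high libraries and 4.75 to 46.7 TPM in STAR-low libraries. Of the other 3 markers, LHCGR and PRLR did not follow STAR, and OXT was too low to judge. LHCGR, the luteinizing hormone receptor, was at 66.4, 12.34 and 10.95 TPM in STAR-high libraries, inside or below the range of 16.3 to 93.8 TPM in STAR-low libraries. PRLR, the prolactin receptor, was at 21.0, 0.27 and 0.27 TPM against 0 to 4.12 TPM. OXT, the oxytocin gene that luteal cells of ruminants transcribe at high level, was listed at 0 in all 3 STAR-high libraries. In the STAR-low libraries it had 1 count, in Puberty replicate 2, and it fell short of the count filter. Markers of the adrenal cortex, another tissue rich in STAR, went both ways. CYP21A2, an enzyme of cortisol synthesis, was at 0.71, 0.09 and 0.24 TPM, against 1.95 to 14.8 TPM in STAR-low libraries. MRAP, the partner protein of the corticotropin receptor, was separated upward at 83.7, 650.35 and 588 TPM against 2.80 to 51.2 TPM. Through MRAP the summed level of the adrenal list was 84.6, 651 and 589 TPM against 5.80 to 59.4 TPM, and the part of adrenal tissue in the results was not tested. Beyond STAR and its close partners CYP11A1 and HSD3B1, the label of luteal-rich tissue has beside it SCARB1, PTGFR and RLN2. It does not have the receptors for luteinizing hormone and prolactin. In bulk tissue, more luteal cells and more RNA per luteal cell cannot be told apart.

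**Figure D1:**
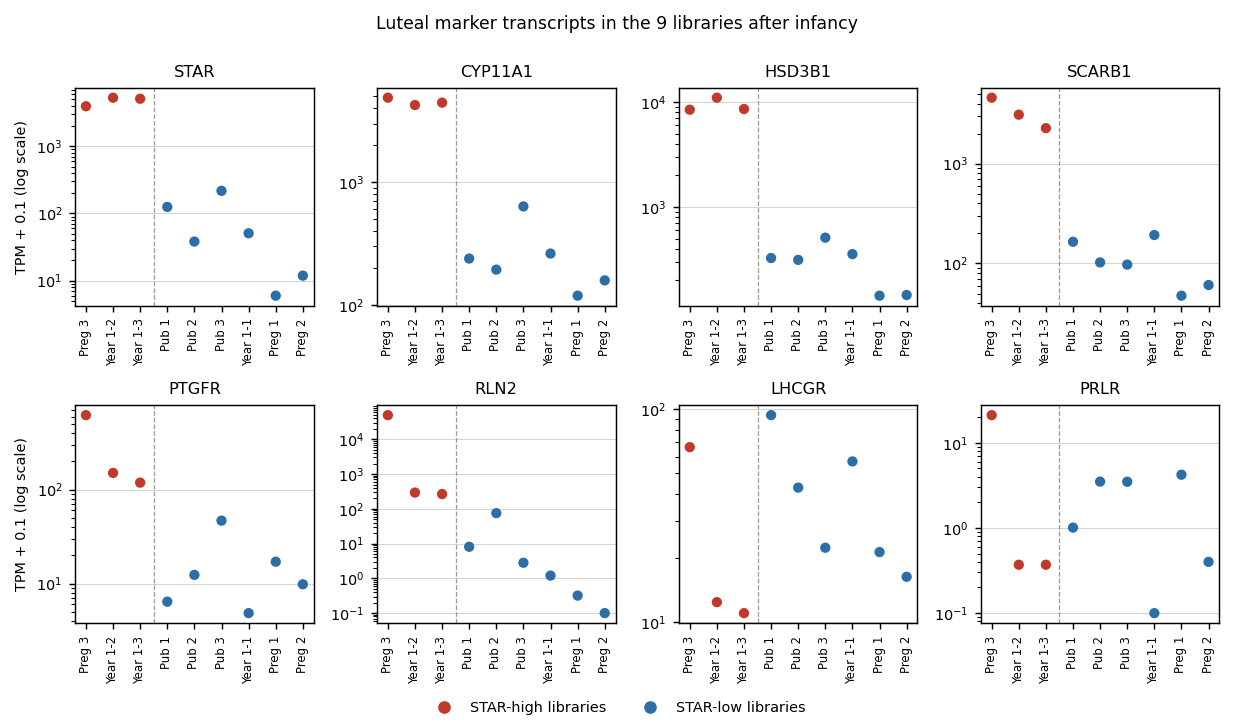
TPM plus 0.1 on a log scale for 8 luteal transcripts; each point is 1 library, red for STAR-high (left of the dashed line) and blue for STAR-low. STAR, CYP11A1, HSD3B1, SCARB1, PTGFR and RLN2 do not overlap between the groups, whereas LHCGR and PRLR do.

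Library totals ran from 14940744 to 16187915 counts, so depth differed little. STAR-high libraries held 15788 to 16303 detected genes, against 16509 to 16934 in STAR-low libraries. The single most abundant transcript was RLN2 in Pregnancy replicate 3 and MSMB, a secreted protein best known from the prostate, in both Year 1 STAR-high libraries. Pregnancy replicate 3 stood apart from the other STAR-high libraries: it lay 0.96 to 1.04 from them in root mean square log2 level over genes, and 0.985 to 1.02 from the STAR-low libraries. The 2 Year 1 STAR-high libraries lay 0.558 apart, and the STAR-low libraries 0.383 to 0.78 apart.

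Among 15504 genes with enough counts, 1410 (9.09%) were separated upward, meaning that all 3 STAR-high libraries lay above all 6 STAR-low libraries and that the fitted fold was at least 2. Another 1487 (9.59%) were separated downward. The fitted fold was taken within stage, so it rests on the Year 1 and Pregnancy libraries, and Puberty libraries bear on it through the overlap alone. Under upper-quartile scaling, which moved the median of all genes to -0.18 on the log2 scale from -0.01 under the scaling used here, the counts were 1087 upward and 1969 downward. Puberty replicate 3 was the nearest STAR-low library for 672 of the 1410 upward genes, and Year 1 replicate 1 for 568 of the 1487 downward genes. The median log2 fold was 1.65 over the upward genes and -1.73 over the downward genes, as the rule of a 2-fold minimum partly sets. Without Pregnancy replicate 3 the separated genes numbered 4297 in place of 2897.

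Steroid synthesis genes did not all follow STAR. Of 23 measured members, 9 were separated upward and 2 downward, where 9.09% and 9.59% of all genes were. The 9 hold STAR, whose separation the rule fixed, and its close partners CYP11A1 and HSD3B1. With them in it, the list's median log2 fold was 0.69, against -0.01 over all genes. The median was 0.39 without Pregnancy replicate 3 and 1.14 without Year 1 replicate 1, and the downward count was 4 without Puberty replicate 3. The upward members held STAR, CYP11A1 and HSD3B1 of the route to progesterone and the mitochondrial electron donor FDX1, which was at 1037, 1606 and 1324 TPM in STAR-high libraries against 154 to 550 TPM in STAR-low libraries. HSD17B2, an enzyme that inactivates oestradiol and testosterone, was at 11.4, 10.3 and 17.8 TPM against 0 to 0.45 TPM, a log2 fold of 7.52 ± 0.90 (standard error from the fit). It had 0 to 4 counts in the STAR-low libraries, so that fold depends on the fit's prior count. CYP17A1 and aromatase were not higher in STAR-high libraries. CYP17A1, the androgen-making enzyme of the theca, was at 30.0, 24.84 and 10.45 TPM in STAR-high libraries, below the STAR-low range of 38.9 to 764 TPM, though the groups overlapped on the scale of the fit. CYP19A3, a pig aromatase whose near-identical copies can share reads, was at 23.9, 8.64 and 2.38 TPM against 6.82 to 868 TPM, and the groups overlapped. NR5A1, the nuclear receptor that switches on steroid genes, was no higher in STAR-high libraries, at 52.4, 41.6 and 42.6 TPM against 49.5 to 120 TPM.

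Cholesterol synthesis was the list with the largest share of upward members: 20 of 23 were separated upward and none downward, and all 23 fitted folds were positive, with a median log2 fold of 2.33. The count was 19 or 20 in each alternative that kept the 2-fold minimum, and 15 with a 4-fold minimum. HMGCS1, which starts the mevalonate route, was at 374, 436 and 412 TPM in STAR-high libraries, against 31.4 to 42.4 TPM in STAR-low libraries. The late-step enzyme TM7SF2 had the largest fold of the list, at 153, 455 and 371 TPM against 11.9 to 22.3 TPM (log2 fold 4.11 ± 0.43). Next came FDPS at 3.71 ± 0.24, HMGCS1 at 3.69 ± 0.17 and MSMO1 at 3.68 ± 0.17. The 3 members short of separation were PMVK, GGPS1 and SREBF2, the last being the transcription factor that drives the pathway, at 63.7, 102 and 97.8 TPM against 35.0 to 88.7 TPM. Its escort protein SCAP, which carries it out of the endoplasmic reticulum, was separated upward at 185, 304 and 301 TPM against 41.6 to 99.4 TPM.

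Genes of cholesterol uptake and handling followed with 9 of 27 separated upward and none downward, or 1 downward without Year 1 replicate 1 or 2. SCARB1, the receptor that takes cholesterol esters from high-density lipoprotein, was at 4577, 3096 and 2268 TPM in STAR-high libraries and 47.5 to 193 TPM in STAR-low libraries. NPC1, which lets cholesterol leave lysosomes, was at 210, 121 and 149 TPM against 16.8 to 37.1 TPM. STARD4, a cytosolic cholesterol carrier that both cholesterol lists hold, was at 17.4, 30.7 and 23.4 TPM against 1.41 to 3.68 TPM.

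Granulosa transcripts were mostly lower. Of 24 granulosa genes, 10 were separated downward and 1 upward, with a median log2 fold of -1.57. Without Pregnancy replicate 3 the downward count was 16 and the median -2.5, and without Year 1 replicate 1 the count was 7 and the median -0.58. FSHR, the follicle-stimulating hormone receptor of granulosa cells, was at 10.98, 0.07 and 0.66 TPM in STAR-high libraries, against 20.8 to 80.6 TPM in STAR-low libraries. AMH, the hormone of small growing follicles, was at 18.0, 0.37 and 1.72 TPM against 26.5 to 118 TPM. In both genes Pregnancy replicate 3 was the highest of the STAR-high libraries. KITLG, the ligand of the oocyte receptor KIT, was the 1 upward member, at 16.8, 3.63 and 3.47 TPM against 1.80 to 3.15 TPM. INHA, the inhibin alpha subunit, was at 404, 311 and 382 TPM against 398 to 9079 TPM, and its overlap came from Pregnancy replicates 1 and 2, which lay at 397.61 and 397.99 TPM.

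The theca list held 6 downward members of 13 and 1 upward, CYP11A1, which the steroid synthesis list shares. Its median log2 fold was -1.56, and -0.92 without Year 1 replicate 1. INSL3, the insulin-like hormone of theca cells, had the largest downward fold of the lists described here, at 363, 2.19 and 14.3 TPM in STAR-high libraries against 989 to 3386 TPM (median 1878) in STAR-low libraries. Among the downward members of the granulosa and theca lists were 4 genes of the hedgehog pathway, named after their values were seen. The ligand IHH was at 17.1, 0.13 and 0.55 TPM against 39.5 to 115 TPM, and DHH at 2.58, 0.95 and 1.98 TPM against 3.93 to 7.99 TPM. The receptor PTCH1, itself a target of the pathway, was at 10.6, 2.90 and 3.10 TPM against 15.9 to 67.3 TPM. The target GLI1, a transcription factor of the pathway, was at 2.93, 0 and 0.70 TPM against 11.8 to 27.2 TPM.

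Oocyte transcripts showed the same direction: 14 of 23 were separated downward and none upward, with a median log2 fold of -2.5. ZP3, a coat protein of the egg, was at 6.60, 0 and 4.69 TPM in STAR-high libraries and 24.0 to 76.1 TPM in STAR-low libraries. BMP15, a growth factor secreted by the oocyte, was at 5.37, 0 and 1.49 TPM against 9.38 to 40.7 TPM. GDF9, its partner, was at 11.26, 7.15 and 11.07 TPM against 18.3 to 41.8 TPM, with a fitted fold just under 2. Year 1 replicate 2 was listed at 0 for BMP15, ZP2, ZP3 and ZP4. Without Pregnancy replicate 3, 16 members were separated downward and 2 upward.

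**Figure D2:**
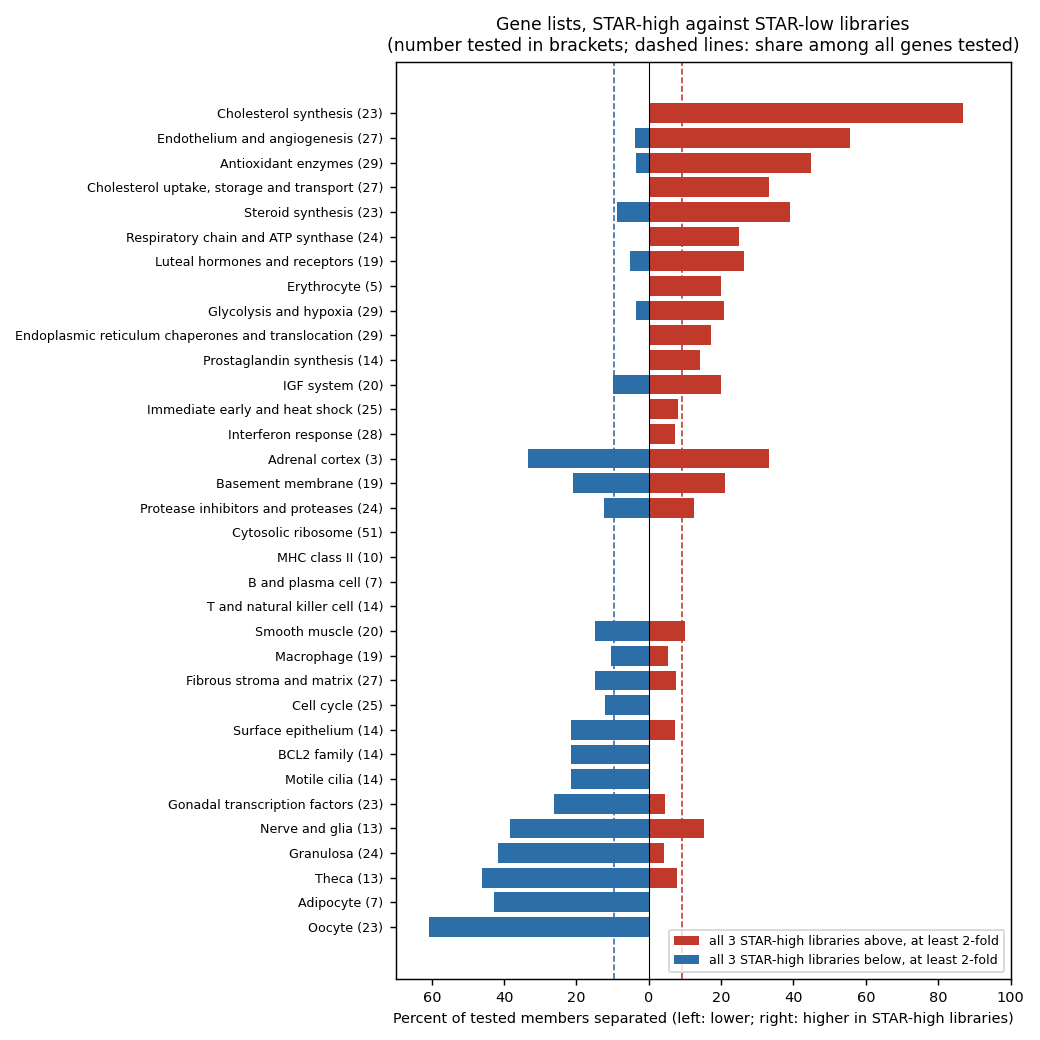
Percent of each list's tested members that lay wholly above (red, right) or wholly below (blue, left) the STAR-low libraries with at least a 2-fold difference; the number tested is in brackets and dashed lines mark 9.09% upward and 9.59% downward among all genes. Cholesterol synthesis has the longest bar to the right, 20 of 23, and oocyte genes the longest to the left, 14 of 23. The steroid synthesis bar counts STAR, whose separation the rule fixed, and its close partners CYP11A1 and HSD3B1.

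Blood vessel transcripts were higher. Of 27 endothelial and angiogenic genes, 15 were separated upward and 1 downward, and 26 fitted folds were positive (median log2 fold 1.24). The upward count was 10 when overlap was judged on TPM and 4 with a 4-fold minimum. KDR, the main receptor for vascular endothelial growth factor, was at 65.4, 46.3 and 38.8 TPM in STAR-high libraries against 15.9 to 24.1 TPM in STAR-low libraries. Its ligand VEGFA was at 261, 125 and 156 TPM against 23.0 to 107 TPM, and CDH5, the junction cadherin of endothelium, at 65.1, 66.6 and 65.4 TPM against 30.1 to 44.4 TPM. The downward member was ANGPT2, which loosens vessels for remodelling, at 13.9, 3.58 and 5.93 TPM against 36.3 to 62.2 TPM. ANGPT1, its stabilising counterpart, was separated upward at 4.23, 6.38 and 4.23 TPM against 0.71 to 4.47 TPM, where the highest STAR-low value was in Puberty replicate 1 and overlapped in TPM though not on the scale of the fit. RGS5, a pericyte marker from the smooth muscle list, was at 237, 117 and 122 TPM against 37.4 to 120 TPM.

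Enzymes that handle peroxides were higher in the same libraries. Of 29 antioxidant genes, 13 were separated upward and 1 downward, with a median log2 fold of 0.88. Without Pregnancy replicate 3 the median was 0.43 and 4 were separated downward. GPX3, a secreted glutathione peroxidase, was at 12637, 6256 and 4859 TPM in STAR-high libraries and 900.13 to 3885 TPM in STAR-low libraries. GPX1, its cytosolic relative, was at 1913, 782 and 777 TPM against 175 to 340 TPM, and the mitochondrial peroxiredoxin PRDX3 at 1414, 586 and 652 TPM against 115 to 300 TPM. SRXN1, which repairs peroxiredoxins, was at 89.2, 115 and 93.9 TPM, and its nearest STAR-low value was 81.3 TPM in Puberty replicate 3, where the STAR-low median was 7.81 TPM. GSTM3, a glutathione transferase, was the downward member. Respiratory chain genes were moderately higher, with 6 of 24 separated upward and 22 positive folds, and the count was 2 without Pregnancy replicate 3 and 14 without Year 1 replicate 1. The members SDHA and SDHC, both subunits of succinate dehydrogenase, had log2 folds of 1.38 ± 0.24 and 1.47 ± 0.19. Of 29 glycolysis and hypoxia genes, 6 were separated upward, led by GPI and HK1, and the hypoxia-induced peptide ADM was the 1 downward member, which overlapped without Pregnancy replicate 1, Pregnancy replicate 3 or Year 1 replicate 3.

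Cell division transcripts were lower in the fit, with no positive fold among 25 genes and a median log2 fold of -1.27. MCM5, a subunit of the replication helicase, was at 15.2, 11.2 and 20.4 TPM in STAR-high libraries against 42.0 to 75.0 TPM in STAR-low libraries. It was 1 of 3 separated members, with TOP2A and CDK1, a count to be read against the 9.59% of all genes. The count was 10 when overlap was judged on TPM, 11 without Year 1 replicate 3, 2 without Year 1 replicate 1, where the median was -0.56, 1 with the replicate number as a block, where the median was -0.67, and 0 with a 4-fold minimum. The cytosolic ribosome list had a median log2 fold of -0.57, with 49 of 51 negative folds and no separated member, so it lay below the 2-fold minimum. That median was -0.26 without Pregnancy replicate 3 and -0.86 without Year 1 replicate 1. Its summed level was 125085, 132963 and 146517 TPM in STAR-high libraries against 171380 to 257190 TPM in STAR-low libraries, and sums in TPM trade against the very abundant RLN2 and MSMB.

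Connective tissue genes went both ways, with counts to be read against 9.09% upward and 9.59% downward among all genes. In the basement membrane list of 19, COL4A5, COL4A6, COL15A1 and NID2 were separated upward and COL4A4, LAMA2, LAMA5 and LAMB2 downward. The downward count was 1 without Year 1 replicate 1 and 2 without Year 1 replicate 2. In the fibrous stroma list of 27, 2 were separated upward and 4 downward, with 7 upward without Pregnancy replicate 3 and 8 downward without Year 1 replicate 3. COL15A1, a collagen of the vessel wall, was at 187, 472 and 339 TPM in STAR-high libraries against 16.0 to 56.7 TPM in STAR-low libraries. DCN, the small proteoglycan decorin of ovarian stroma, was at 256, 115 and 329 TPM against 514 to 1312 TPM. FBLN1, a matrix glycoprotein, was at 102, 21.9 and 214 TPM against 514 to 799 TPM, while its relative FBLN2 was at 35.4, 283 and 206 TPM against 11.6 to 18.6 TPM. MYH11, the smooth muscle myosin, was at 49.4, 10.8 and 25.4 TPM against 71.8 to 152 TPM. In the IGF system, the binding protein IGFBP4 was at 596, 619 and 556 TPM against 119 to 492 TPM, and IGF1 itself was at 11.08, 4.56 and 5.73 TPM against 13.0 to 25.6 TPM.

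Immune genes mostly had positive folds but overlapped between the groups. Separated counts here are to be read against 9.09% upward and 9.59% downward among all genes. None of 10 MHC class II genes and none of 14 T and natural killer cell genes was separated, though every fold was positive, with medians of 1.26 and 1.63 on the log2 scale. Interferon response genes had 28 of 28 positive folds (median 1.08), and 2 were separated upward. With upper-quartile scaling 13 of 14 and 27 of 28 were positive in the T and natural killer cell and interferon lists. These lists turned on single libraries: without Year 1 replicate 3, 9 MHC class II, 4 T and natural killer cell and 14 interferon response genes were separated upward. Without Pregnancy replicate 3, 6 T and natural killer cell genes were. Without Year 1 replicate 1 the medians of the T and natural killer cell and interferon lists were 0.14 and 0.24, and without Year 1 replicate 2 they were 0.69 and 0.18. None of 7 B and plasma cell genes was separated, and their median of 0.42 was below 0 without Year 1 replicate 1 or 2. Of 19 macrophage genes 1 was separated upward and 2 downward, with 3 upward without Year 1 replicate 3 and 4 downward without Year 1 replicate 2. MARCO, a scavenger receptor of macrophages, was the upward one, at 36.7, 3.89 and 0.34 TPM against 0 to 0.29 TPM. The summed macrophage level was 2611, 1014 and 522 TPM in STAR-high libraries, against 666 to 1908 TPM in STAR-low libraries. HBB, the beta globin of red blood cells, was at 2036, 964 and 251 TPM against 179 to 291 TPM. It was judged separate on the scale of the fit though not in TPM, and the part of red cell RNA in the results was not tested.

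**Figure D3:**
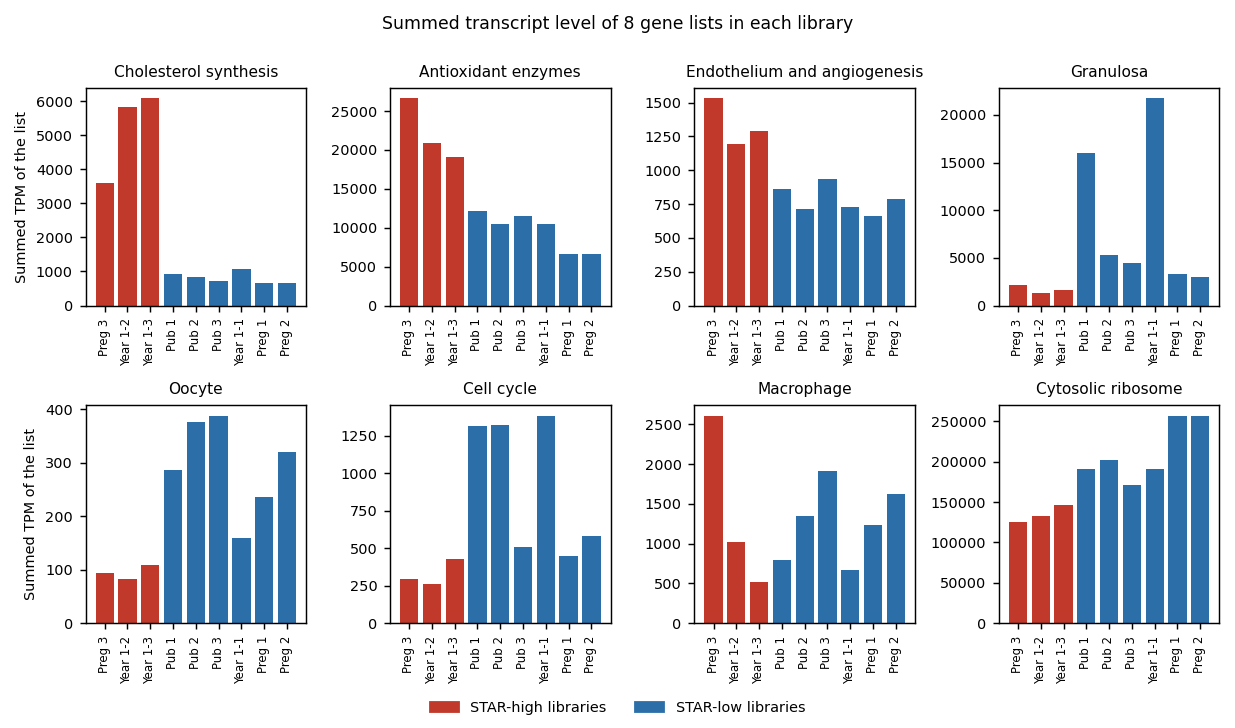
Summed TPM of 8 gene lists in each library, red for STAR-high (left) and blue for STAR-low; bars start at 0 and there is 1 library to a bar. Cholesterol synthesis, antioxidant and endothelial sums are higher in all 3 STAR-high libraries, granulosa, oocyte, cell cycle and ribosome sums are lower, and macrophage sums overlap.

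Single genes with the largest separations included several outside these lists. AREG, an epidermal growth factor relative that luteinizing hormone induces at ovulation, was at 458, 716 and 450.2 TPM in STAR-high libraries, against a STAR-low median of 0.62 TPM and a highest STAR-low value of 127 TPM in Puberty replicate 3. IBSP, a matrix protein best known from bone, was at 43.1, 165 and 218 TPM against 0.07 to 2.79 TPM. The gene listed as gene-PDZK1IP1, a small membrane protein, was at 2432, 3360 and 1604 TPM against 2.16 to 23.4 TPM. PCOLCE2, which speeds the maturation of procollagen, was at 689, 944 and 703 TPM against 3.73 to 16.3 TPM. RASGRP1, an activator of Ras, was at 56.4, 30.0 and 34.4 TPM against 0.28 to 0.94 TPM (log2 fold 6.95 ± 0.22). Among downward genes, NDRG2 was at 176, 14.1 and 24.9 TPM against 386 to 1339 TPM, and COL9A2, a chain of collagen IX, at 33.0, 1.08 and 5.03 TPM against 160 to 359 TPM. HDC, which makes histamine, was at 2.85, 1.46 and 0.88 TPM against 4.75 to 142 TPM. In 7 of the 15 upward genes named by size, the highest STAR-low value stood clear of the other STAR-low values, in Puberty replicate 3 for 5 of them and Puberty replicate 2 for RLN2 and PCSK1.

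Pregnancy and Year 1 each held libraries on both sides of the gap, from different sows. Across the genes tested, the log2 fold at Year 1 and that in Pregnancy had a Pearson correlation of 0.437 and a Spearman correlation of 0.529, given as a description because genes are not independent replicates and all libraries were scaled together. In Pregnancy 2359 genes (15.2%) were at least 2-fold higher in the STAR-high library, and at Year 1 2840 genes (18.3%). The 1230 genes (7.93%) that met this in both stages were 52.1% of the Pregnancy genes and 43.3% of the Year 1 genes. For genes at least 2-fold lower, the 1291 shared genes (8.33%) were 53.8% of 2398 in Pregnancy and 42.9% of 3012 at Year 1. HMGCS1 had a log2 fold of 3.57 in Pregnancy and 3.82 at Year 1, whereas MSMB had 0.45 in Pregnancy and 10.22 at Year 1.

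**Figure D4:**
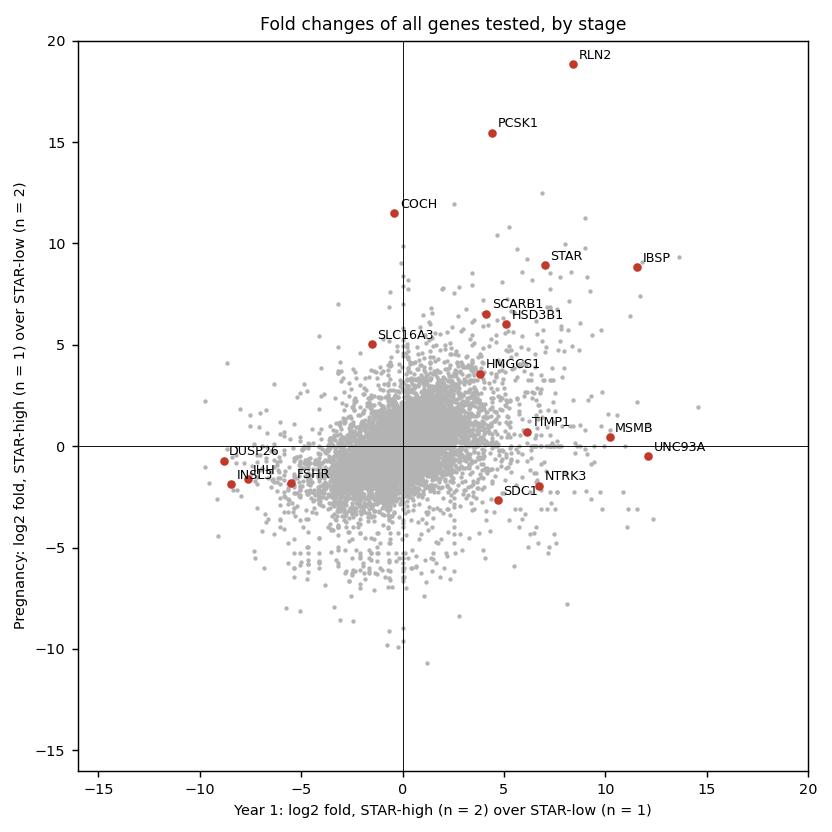
Log2 fold of STAR-high over STAR-low libraries for each gene tested, with the Pregnancy fold (1 library over 2) on the vertical axis and the Year 1 fold (2 libraries over 1) on the horizontal axis. The cholesterol gene HMGCS1 lies near the diagonal, RLN2, PCSK1 and COCH lie high in Pregnancy, and MSMB, UNC93A and NTRK3 lie far to the right with Pregnancy folds near or below 0.

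The STAR-high libraries of Pregnancy and Year 1 were then compared with each other, 1 library against 2, so the lone Pregnancy library was assumed to vary like the others and its sow cannot be told apart from its stage. By edgeR's quasi-likelihood test with Benjamini-Hochberg adjustment over all genes, 1050 genes (6.77%) were higher and 742 (4.79%) lower in Pregnancy, 11.6% in all, and 29.8% had an unadjusted p under 0.05. The total of 1792 was 553 without Year 1 replicate 2, 1148 without Year 1 replicate 3, and 917 and 930 without Pregnancy replicates 1 and 2. For Puberty it was 1001 without replicate 2 and 2754 without replicate 3.

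Among genes higher in Pregnancy by size were COCH, PCSK1, KNG1 and relaxin. RLN2 (chromosome 1, 216763546 to 216769802, Sscrofa11.1) reached 49365 TPM in the Pregnancy library, with 293 and 265 TPM at Year 1, a log2 difference of 7.31 ± 1.59 (edgeR adjusted p = 0.0331). That call was lost without Year 1 replicate 2 (adjusted p = 0.131), Year 1 replicate 3 (0.114), Pregnancy replicate 1 (0.0697) or Pregnancy replicate 2 (0.0693). PCSK1, a protease that cleaves prohormones, was at 450.21 TPM in Pregnancy and 1.38 and 0.58 TPM at Year 1 (log2 difference 8.65 ± 1.05, edgeR adjusted p = 0.00692), and its call held in each alternative fit. COCH, a secreted matrix protein known from the inner ear, was at 1244 TPM in Pregnancy and at 0.02 and 0.08 TPM at Year 1, where it had 1 and 4 counts (edgeR adjusted p = 0.0035). KNG1, the kininogen precursor, was at 159 TPM in Pregnancy and 0.46 and 0.72 TPM at Year 1, and its call was lost without Year 1 replicate 2 (edgeR adjusted p = 0.0769) or Year 1 replicate 3 (0.0526). PRLR was higher in Pregnancy by 6.09 ± 1.35 on the log2 scale (edgeR adjusted p = 0.0348, but 0.132 without Year 1 replicate 2, 0.112 without Year 1 replicate 3 and 0.0641 without Puberty replicate 2). Both Year 1 STAR-high libraries lay below 2 TPM for PCSK1, COCH, KNG1 and PRLR.

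Year 1 STAR-high libraries had their own abundant transcripts. MSMB (chromosome 14) was at 549 TPM in Pregnancy and 36139 and 30835 TPM at Year 1, a log2 difference of -6.05 ± 0.56 (edgeR adjusted p = 0.0035). NTRK3, the receptor for neurotrophin-3, was at 0.55 TPM in Pregnancy and 136.26 and 135.93 TPM at Year 1 (log2 difference -7.89 ± 0.39, edgeR adjusted p = 0.00144). UNC93A was at 0.22 TPM in Pregnancy and 165 and 249 TPM at Year 1, and RFLNA, which binds filamin, at 7.06 TPM against 762 and 948 TPM. SDC1, the heparan sulphate proteoglycan syndecan-1, was at 4.07 TPM in Pregnancy and 211 and 199 TPM at Year 1. The calls of MSMB, NTRK3, UNC93A, RFLNA and SDC1 held in each alternative fit. TNFAIP6, a hyaluronan-binding protein made by the expanding cumulus, was at 2.48 TPM in Pregnancy and 355 and 102 TPM at Year 1 (log2 difference -6.71 ± 1.19, edgeR adjusted p = 0.0183). TIMP1, an inhibitor of matrix proteases, was at 493 TPM in Pregnancy and 27278 and 17951 TPM at Year 1, yet its difference missed the threshold (edgeR adjusted p = 0.0674, and 0.0014 to 0.143 over the alternatives). Puberty replicate 3, at 2933 TPM, held far more TIMP1 than the other STAR-low libraries, which lay at 277 to 389 TPM.

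Hormone and prostaglandin receptors differed as well. PGR, the progesterone receptor, was at 0.80 TPM in Pregnancy and 4.74 and 9.87 TPM at Year 1 (log2 difference -3.35 ± 0.56, edgeR adjusted p = 0.0155), a call that held whichever library other than Pregnancy replicate 3 was left out. PTGER4, a receptor for prostaglandin E2, was at 8.82 TPM in Pregnancy and 1.17 and 0.40 TPM at Year 1 (log2 difference 3.29 ± 0.61, edgeR adjusted p = 0.0211). Of 19 luteal hormone and receptor genes, 6 were higher and 2 lower in Pregnancy, and the number higher ran from 1 without Year 1 replicate 2 to 9 without Puberty replicate 3. PTGER4, MSMB and PGR were the 3 whose calls no left-out library ended. LHCGR, at 66.36 TPM in Pregnancy and 12.34 and 10.95 TPM at Year 1, missed the threshold (edgeR adjusted p = 0.0708).

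**Figure D5:**
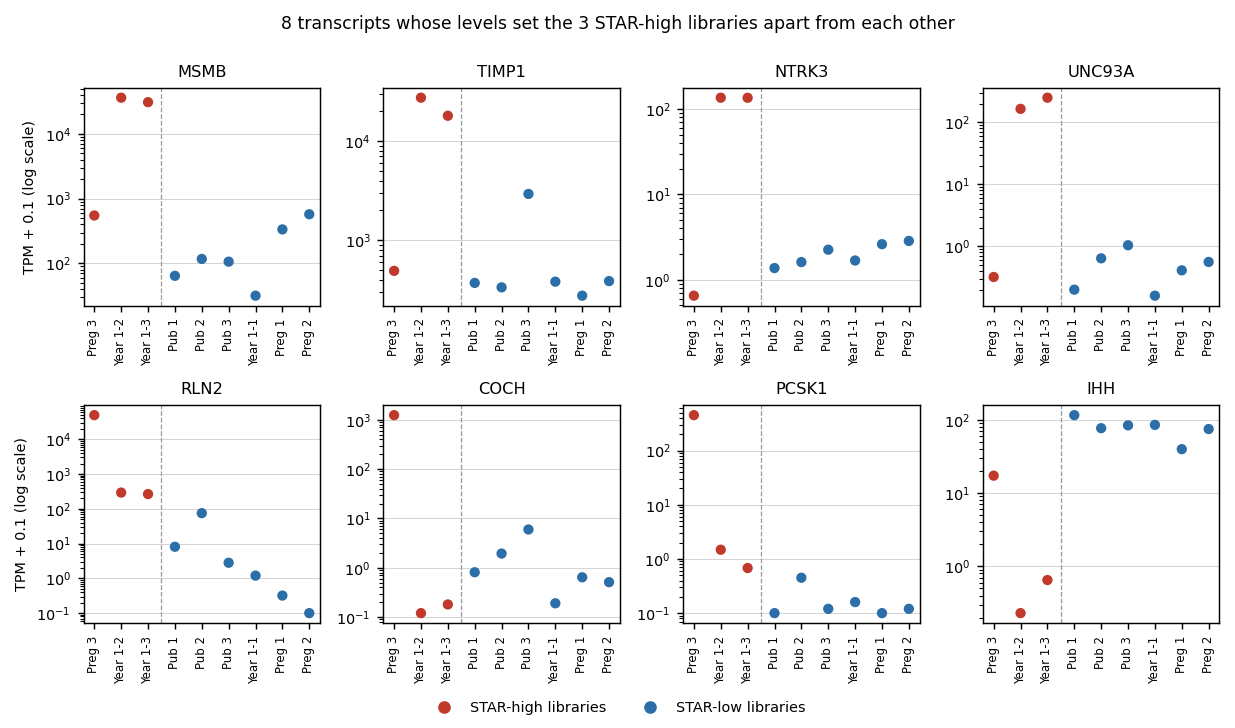
TPM plus 0.1 on a log scale for 8 transcripts, 1 point to a library, red for STAR-high (left of the dashed line) and blue for STAR-low. MSMB, TIMP1, NTRK3 and UNC93A are high in Year 1 replicates 2 and 3 and not in Pregnancy replicate 3; RLN2, COCH and PCSK1 are highest in Pregnancy replicate 3, and IHH is lowest in the Year 1 STAR-high libraries.

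Granulosa genes that passed the test were higher in Pregnancy within the STAR-high side, and theca and oocyte calls went both ways. List counts in this comparison are to be read against 6.77% higher and 4.79% lower over all genes. Of 24 granulosa genes, 6 were higher and none lower in Pregnancy, and the number higher ran from 4 to 8 as single libraries were left out. FSHR differed by 4.79 ± 0.62 on the log2 scale (edgeR adjusted p = 0.00839), AMH by 3.93 ± 0.62 (0.0133), IHH by 5.48 ± 0.64 (0.00641) and KITLG by 2.08 ± 0.23 (0.0058), and these 4 calls held whichever library other than Pregnancy replicate 3 was left out. The call of FOXL2 was lost without Year 1 replicate 2 (edgeR adjusted p = 0.0875) or Year 1 replicate 3 (0.0573). The call of HSD17B1 was lost without any 1 of Year 1 replicates 2 and 3, Pregnancy replicates 1 and 2 or Puberty replicate 2 (edgeR adjusted p = 0.0664 to 0.144). Of 13 theca genes 3 were higher and 2, PDGFRA and COL4A1, lower in Pregnancy. COL4A1 lost its call without any 1 of Pregnancy replicates 1 and 2, Year 1 replicates 2 and 3 or Puberty replicate 2. INSL3 was higher by 5.32 ± 0.92 (edgeR adjusted p = 0.0175). With the replicate number as a block the INSL3 call was lost. For comparison, the STAR-low libraries of Pregnancy held 1760 and 1219 TPM of INSL3 and that of Year 1 held 3386 TPM, above every STAR-high library. Of 23 oocyte genes 1 was higher and 2, SOHLH1 and KIT, lower in Pregnancy, and 8 were higher without Year 1 replicate 3. KIT, the receptor of the KITLG protein, was at 5.30 TPM in Pregnancy and 45.4 and 35.8 TPM at Year 1 (log2 difference -3.12 ± 0.41, edgeR adjusted p = 0.00839). SOHLH1, a transcription factor of germ cells, was listed at 0 in Pregnancy and at 15.7 and 24.6 TPM at Year 1 (edgeR adjusted p = 0.0113).

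Cholesterol synthesis was lower in Pregnancy than at Year 1 for part of the list, with 6 of 23 genes lower and 1 higher. DHCR7, which makes the last step to cholesterol, differed by -2.18 ± 0.23 on the log2 scale (edgeR adjusted p = 0.00446). Its call held whichever library other than Pregnancy replicate 3 was left out, and the number of genes lower ran from 2 without Year 1 replicate 2 to 12 without Puberty replicate 3. CYB5A, the cytochrome b5 that aids steroid enzymes, was at 432 TPM in Pregnancy and 3337 and 2476 TPM at Year 1 (log2 difference -2.93 ± 0.48, edgeR adjusted p = 0.0147).

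Matrix genes also differed between the stages. COL3A1, the collagen of loose connective tissue, was at 525 TPM in Pregnancy and 2102 and 2633 TPM at Year 1 (log2 difference -2.35 ± 0.23, edgeR adjusted p = 0.0035). FBLN2 and PDGFRA were lower in Pregnancy, with log2 differences of -2.97 ± 0.34 and -2.17 ± 0.30 (edgeR adjusted p = 0.00634 and 0.00963). COL14A1, a collagen on fibril surfaces, was higher in Pregnancy by 2.99 ± 0.38 (edgeR adjusted p = 0.00783), and so were COL4A3 by 3.71 ± 0.39 (0.00441) and COL4A4 by 3.09 ± 0.31 (0.00387). Those 6 calls held whichever library other than Pregnancy replicate 3 was left out. In the basement membrane list of 19, COL4A3 and COL4A4 were the 2 higher in Pregnancy. The 5 lower were COL4A1, COL4A2, LAMC1, NID2 and COL18A1, of which NID2 and COL18A1 held in the same way. IGFBP2, a binding protein for insulin-like growth factors, was at 1246 TPM in Pregnancy and 33.5 and 68.4 TPM at Year 1 (edgeR adjusted p = 0.0035). Of the macrophage list, 5 of 19 were higher in Pregnancy and none lower, among them the complement subunit C1QA at 631 TPM against 108 and 62.2 TPM (edgeR adjusted p = 0.0155). The number of macrophage genes called ran from 1 to 6 as single libraries were left out, and the part of macrophage RNA in the other differences was not tested.

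Whether the gap between STAR-high and STAR-low libraries itself differed by stage was tested as the Pregnancy gap minus the Year 1 gap. Each gap rests on 1 lone library, Pregnancy replicate 3 or Year 1 replicate 1, assumed to vary like the others. Sow and stage therefore cannot be told apart in this difference. It differed for 215 genes (1.39%, where 18.2% had an unadjusted p under 0.05), 118 (0.761%) with a larger value in Pregnancy and 97 (0.626%) with a smaller one. The total was 4 without Pregnancy replicate 2, 6 without Pregnancy replicate 1, 7 without Puberty replicate 2, 21 without Year 1 replicate 2, 88 without Year 1 replicate 3, 335 and 863 without Puberty replicates 1 and 3. Of the 16 genes named by size, MSMB and NTRK3 kept their calls in each alternative fit. MSMB had a log2 gap of 0.45 in Pregnancy and 10.22 at Year 1, a difference of -9.78 ± 0.75 (edgeR adjusted p = 0.0136). NTRK3 had a gap of -1.94 in Pregnancy and 6.75 at Year 1, a difference of -8.69 ± 0.47 (edgeR adjusted p = 0.00517).

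Within the STAR-low side, Pregnancy replicates 1 and 2 were set against the 3 Puberty libraries. No gene passed edgeR's test (0 of 15504, adjusted p under 0.05), 1326 genes (8.55%) had an unadjusted p under 0.05, and DESeq2 called 265. RLN2 was at 0.22 and 0 TPM in these Pregnancy libraries, against 8.00, 74.9 and 2.71 TPM at Puberty. STAR was at 5.88 and 11.79 TPM in these Pregnancy libraries, against 125.12, 38.14 and 217.37 TPM at Puberty.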

How the data were processed

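Per the submitters' processing notes, the tools were Bowtie2 2.3.4.3, RSEM 1.3.1 and DESeq2 1.4.5, with genome build Sscrofa11.1. For each of 18753 genes the authors deposited RSEM expected counts, estimates that can be fractional, together with TPM. The deposited fold changes and q-values of the authors were not used. Expected counts were rounded; 93.88% to 94.68% of a library's values were already whole. TPM gave levels and was not tested.

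Genes were filtered with edgeR's filterByExpr (minimum count 10) and scaled by TMM (edgeR 4.0.16, R 4.3.3). STAR-high and STAR-low libraries were described with a fit of stage plus STAR class. Stages were tested with edgeR's quasi-likelihood test on 5 groups (stage by STAR class), with Benjamini-Hochberg adjusted p under 0.05. A ± after a log2 difference is its standard error, computed as the difference over the square root of F. No sow gave more than 1 mRNA library. The p-values measure the spread between libraries, which can hold differences of fragment as well as of sow.

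The groups, the 34 gene lists and the genes named were chosen with earlier results of these data known. Named by rule were the 15 largest folds each way among separated genes with mean log2 CPM of at least 5, the 8 largest each way in each tested comparison, up to 3 members of each list and a fixed set; other list members were named after their values were seen. Coordinates are RefSeq's for Sscrofa11.1. No pair of libraries of the same group agreed to within sampling noise (chi-square per degree of freedom at least 20.5). The scripts were tested on simulated counts. Alternatives were RLE and upper-quartile scaling, no count filter, a minimum count of 50, DESeq2 1.42.0, adding Day 3, a term for the replicate number, leaving out each library, and, for the separated genes, no stage term, no Puberty libraries, a 4-fold minimum and overlap on TPM. Values of some genes are not reported here.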

Additional observations from a re-analysis of the deposited data

Results flagged for a closer look

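The gap between STAR-high and STAR-low libraries differed between Pregnancy and Year 1, by the edgeR test of that difference, for 16 genes named by size. The log2 differences, Pregnancy minus Year 1, were 8.11 for DUSP26, 6.55 for SLC16A3, 6.01 for IHH, 5.23 for PPM1J, 5.01 for MCRIP2, 4.81 for PRR15, 4.27 for KCNN2 and 4.10 for ZBED3. They were -12.59 for UNC93A, -9.78 for MSMB, -8.69 for NTRK3, -7.37 for SDC1, -6.72 for RFLNA, -6.25 for RAB27B, -5.58 for SLC5A6 and -5.13 for CXCR4. MSMB and NTRK3 kept the call in each alternative fit, and the other 14 lost it in at least 1. The value of UNC93A rests on 1 count in Year 1 replicate 1, so it depends on the fit's prior count and is not a bound. SLC16A3, which exports lactate, was at 120 TPM in the STAR-high library of Pregnancy and 4.02 and 3.59 TPM in its STAR-low libraries, while at Year 1 it was at 18.3 and 27.3 TPM in STAR-high libraries and 80.8 TPM in the STAR-low one. For CXCR4, a chemokine receptor, the STAR-high levels were 37.3 TPM in Pregnancy against 843 and 705 TPM at Year 1.

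Among the 6 STAR-low libraries, 1 library stood apart for 19 of 73 named genes, by the gap to its nearest neighbour as a share of the whole range. Chance flags about 1 in 20 such groups where values spread normally. TPM was used here without logs, so the chance rate for these genes is not known, and these libraries come from 3 stages. Puberty replicate 3 was the high one for 14 genes. The share was 0.949 for IBSP, 0.989 for AREG, 0.987 for LIPH, 0.843 for PAQR9, 0.907 for MGAM, 0.697 for COCH and 0.792 for RHCG. It was 0.825 for RFLNA, 0.848 for UGT1A6, 0.725 for SLC5A6, 0.746 for CXCR4, 0.722 for CYP11A1, 0.708 for PTGFR and 0.958 for TIMP1. Puberty replicate 2 was the high one for RLN2 (0.893), PCSK1 (0.829) and OXT (1, at 0.45 TPM from 1 count, with 0 elsewhere). Year 1 replicate 1 was high for SLC16A3 (0.821) and low for COL9A2 (0.673).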

How the results depend on the processing

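The 2897 separated genes became 1095 with a 4-fold minimum and 2842 to 4297 as single libraries were left out. Pregnancy against Year 1 in STAR-high libraries gave 1792 genes by edgeR, 2786 by DESeq2, 2797 with Day 3 libraries in the fit and 553 to 2754 as single libraries were left out. The difference of the gaps gave 215, 1144 by DESeq2, 771 with Day 3 libraries and 4 to 863 as single libraries were left out. STAR-low Pregnancy against Puberty gave 0, 265 by DESeq2 and 3 with Day 3 libraries. No named gene that was separated, or that passed a test, turned its direction in an alternative. Turns of direction were not counted for the other named genes. Pregnancy against Year 1 could not be fitted without Pregnancy replicate 3, nor the difference of the gaps without it or Year 1 replicate 1. The causes were not tested.

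Replicate numbers do not pair the sows, and same-numbered libraries deviated from their group means with correlations of -0.103 to 0.0251. A replicate block ended the Pregnancy against Year 1 calls of INSL3, TNFAIP6, CYB5A, PGR, PTGER4 and AMH, among others. With a replicate block the counts were 2970 separated genes, 437 for Pregnancy against Year 1, 2 for the difference of the gaps and 0 for STAR-low Pregnancy against Puberty.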
